A study of Mus musculus with 24 samples.

Results

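The secreted Wnt ligands form a family of 19 genes in the mouse, and 10 of them are described here in the adult hippocampus: Wnt9a, Wnt2, Wnt4, Wnt5a, Wnt5b, Wnt6, Wnt7a, Wnt7b, Wnt10a and Wnt10b. They were found by matching the Ensembl identifiers of the deposited count matrix to gene symbols, and all 10 were among its 55471 genes. The other 9 ligands are given as a group for comparison.

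Wnt proteins are lipid-modified signals that the acyltransferase Porcn matures and the carrier Wls brings to the cell surface. They bind Frizzled receptors, either with the Lrp5 and Lrp6 co-receptors, in which case β-catenin (Ctnnb1) is stabilized and acts with TCF/LEF factors in the nucleus, or with receptors such as Ror1, Ror2 and Ryk, which signal without β-catenin. In the hippocampus, Wnt7a, Wnt7b and Wnt5a are known for their roles in the growth of dendrites and the formation and function of synapses.

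Hippocampal RNA was sequenced from 12 female C57BL/6 mice (C57BL/6J in the study's methods) of 3 to 6 months, in 4 groups of 3. CBP-ifKO mice carried floxed alleles of Crebbp, which encodes the histone acetyltransferase CBP, and a Camk2a-creERT2 transgene, so that tamoxifen recombined the gene in forebrain excitatory neurons, which then made a truncated protein without acetyltransferase activity, while other hippocampal cells kept the intact gene. Control littermates lacked creERT2, and both genotypes received tamoxifen in 5 administrations of a 20 mg/mL solution. Mice of each genotype were kept in a standard cage (SC) or in environmental enrichment (EE), a large box shared by more mice, with running wheels, tubes and toys that were rearranged, which gave control SC, CBP-ifKO SC, control EE and CBP-ifKO EE. The comparisons asked how loss of CBP changes hippocampal transcription and whether it changes the response to enrichment.

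Libraries held 26874015 to 27971488 counts in controls and 28582210 to 37448388 in CBP-ifKOs, where every count was an even number. Crebbp was lower in CBP-ifKOs in both housings, at 75.5 ± 5.78 CPM (counts scaled to library size) against 50.7 ± 0.797 CPM in SC (mean ± SD, n = 3) and 73.0 ± 3.79 against 46.5 ± 1.89 in EE. Its log2 fold change was -0.58 in SC and -0.64 in EE (edgeR adjusted p = 0.000542 and 0.000407, the latter 0.000809 without control EE replicate 1). All 6 markers of hippocampal excitatory neurons were detected in each mouse, with a summed level of 1803 to 2177 CPM. Markers of the choroid plexus, a secretory tissue that borders the hippocampus, summed to 1250 CPM in control EE replicate 1 and to 34.8 to 62.9 CPM in the other 11 mice, so calls of the ligands that use the EE controls are also given without that mouse. In whole tissue, fewer cells of a type and less RNA per cell cannot be told apart.

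The promoters of Wnt9a, Wnt4 and Wnt7a are shown because these genes are described most closely below and had at least 60 bases upstream of every annotated start in the RefSeq promoter table (GRCm38.p6), which held 7 of the 10 genes. Capitals mark CG dinucleotides, the sites of DNA methylation, and each sequence reads 5′ to 3′ on the strand of its gene and ends just before the first start annotated by RefSeq or GENCODE, which for Wnt9a is the RefSeq start upstream of the gene position given below. The windows were chr11:59306680-59306848 on the plus strand for Wnt9a, chr4:137277385-137277488 on the plus strand for Wnt4 and chr6:91411364-91411603 on the minus strand for Wnt7a.
Wnt9a: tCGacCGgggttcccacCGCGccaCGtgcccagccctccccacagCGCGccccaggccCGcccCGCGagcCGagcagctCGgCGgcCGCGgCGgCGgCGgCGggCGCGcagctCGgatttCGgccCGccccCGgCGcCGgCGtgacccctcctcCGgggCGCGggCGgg
Wnt4: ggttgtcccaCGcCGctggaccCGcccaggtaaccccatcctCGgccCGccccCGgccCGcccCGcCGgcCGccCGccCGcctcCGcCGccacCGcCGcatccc
Wnt7a: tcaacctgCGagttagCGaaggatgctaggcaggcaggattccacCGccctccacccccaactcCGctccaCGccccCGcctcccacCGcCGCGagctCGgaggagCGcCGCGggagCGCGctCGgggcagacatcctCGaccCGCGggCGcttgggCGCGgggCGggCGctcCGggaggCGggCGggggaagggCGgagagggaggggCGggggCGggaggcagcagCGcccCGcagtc

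The 3 windows shown were rich in G and C. The 169 bases of Wnt9a held 32 CG dinucleotides and were 84.6% G or C, against medians of 3 and 50.9% over the first 169 bases of all 32851 promoter windows, and 0.292% of those windows held as many. The remaining window that could be read, that of Wnt10b, held 10 in 194 bases, reached by 28.1% of all windows. The 104 bases of Wnt4 held 16 CG dinucleotides, a number reached by the first 104 bases of 1.98% of all windows. The 240 bases of Wnt7a held 32, reached by the first 240 bases of 3.86%. Each window begins 250 bases before its start, so the first bases of other windows can end farther from an annotated start than those shown. None of the 3 windows held, on either strand, the CRE half-site TGACG, the full CRE, the AP-1 site TGANTCA or the TCF/LEF site CTTTGA. Over the first 169, 104 and 240 bases of all windows, the half-site occurred in 9.77%, 5.56% and 16.9%, and the TCF/LEF site in 10.3%, 6.51% and 13.5%. These letters are a description of the windows only.

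Levels were compared between genes in CPM per kilobase of gene length (RPKM), since the genes differ in length from 2192 bases for Wnt6 to 7823 bases for Wnt5a. Wnt7b was the most abundant of the 10 ligands in each group, with a mean of 9.51 RPKM in control SC, and Wnt6 and Wnt10b were the least abundant, at 0.304 and 0.232 RPKM there. In control SC, Wnt7a followed Wnt7b at 5.39 RPKM, then came Wnt4 at 4.19, Wnt9a at 3.03, Wnt2 at 1.91, Wnt5a at 1.80, Wnt5b at 1.01 and Wnt10a at 0.960 RPKM. The mice of neighbouring genes overlapped for Wnt7a and Wnt4, for Wnt2 and Wnt5a, for Wnt5b and Wnt10a and for Wnt6 and Wnt10b, so the order within these pairs was within the spread between mice.

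The place of Wnt9a in this order differed between groups. It was the fourth ligand in control SC and the second in control EE, at 4.72 RPKM, where its mice overlapped those of Wnt7a at 4.16 RPKM. In CBP-ifKOs it was the third in both housings, at 2.10 RPKM in SC and 2.59 RPKM in EE, and overlapped Wnt4 at 1.94 and 2.04 RPKM. By CPM, which does not divide by length, the long Wnt5a moved up to the second place in both CBP-ifKO groups, while Wnt7b kept the first.

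**Figure D1:**
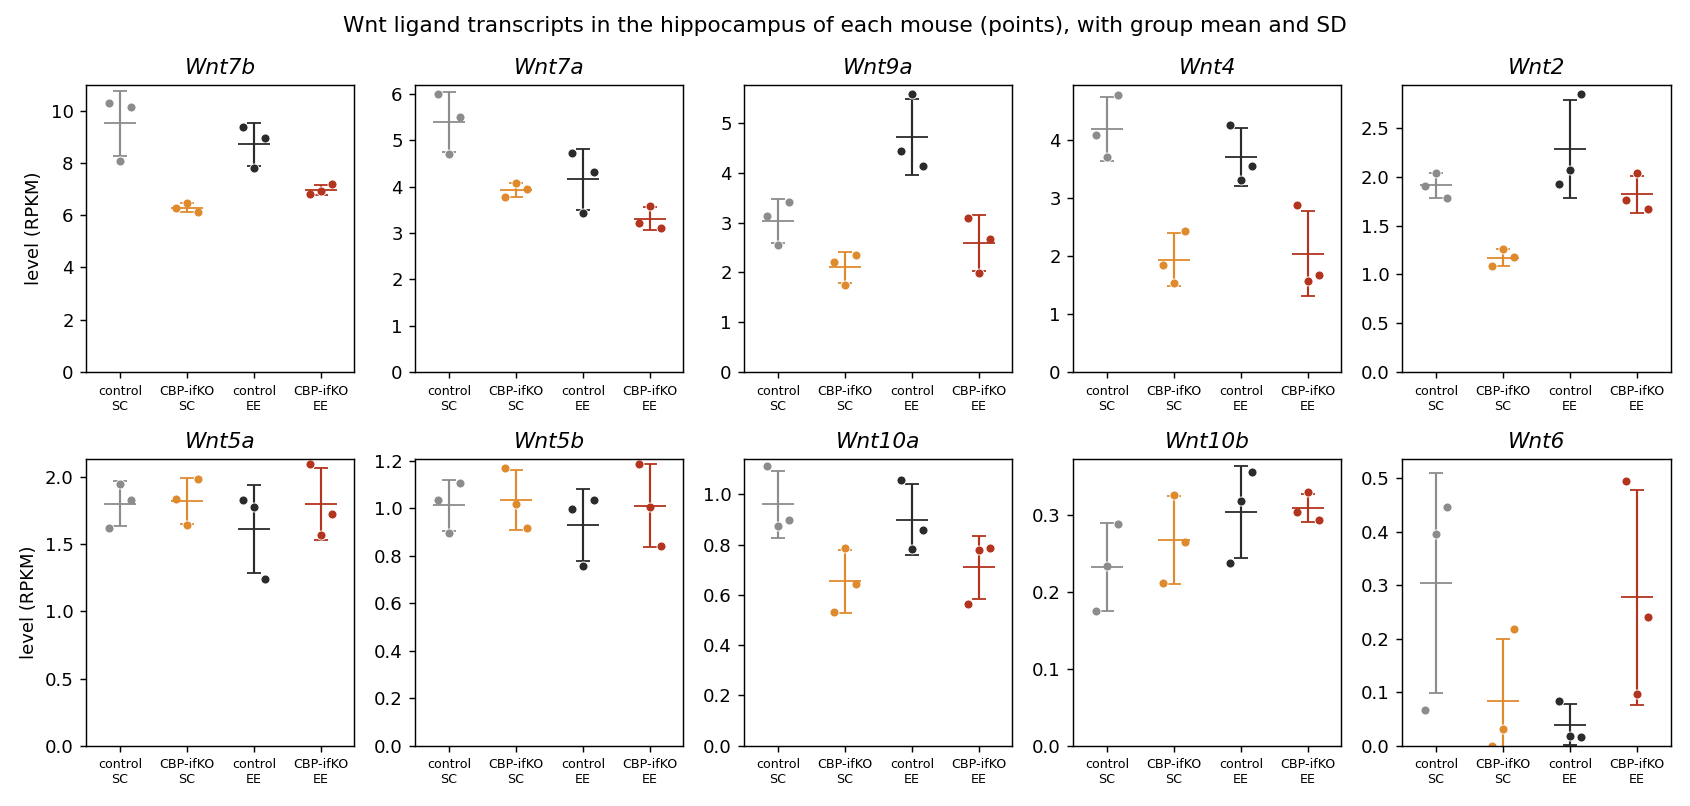
Level of each of the 10 Wnt ligands (RPKM, vertical axis from 0, scaled per gene) in the 4 groups, with 1 point per mouse and the group mean and SD as bars. Wnt7b was the most abundant, at 9.51 RPKM in control SC; the points of Wnt9a in control EE lie above those of the other groups.

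In SC, Wnt4, Wnt7b, Wnt2 and Wnt7a were lower in CBP-ifKOs than in controls, with log2 fold changes from -1.10 to -0.46, and Wnt9a and Wnt10a had values of the same sign that did not pass the threshold. Wnt5a, Wnt5b and Wnt10b had log2 fold changes between 0.02 and 0.19. The test was edgeR's quasi-likelihood test within the 6 SC mice, and a gene was called at a Benjamini-Hochberg adjusted p below 0.05 over all 17532 genes tested. Of the 10 ligands, 4 were called and all 4 were lower, while 5.52% of all genes were called and 4.02% were called lower. The median log2 fold change was -0.54 over the 10 ligands and -0.002 over all genes. In 6 of the 10 the mice of the groups did not overlap, each with CBP-ifKOs lower, as in 13.8% of all genes.

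Wnt4, known for its role in kidney and gonad development, had the largest called difference. It measured 17.1, 15.5 and 20.0 CPM in control SC and 7.71, 6.43 and 10.2 CPM in CBP-ifKO SC. Every CBP-ifKO was below every control, and the log2 fold change was -1.10 (standard error 0.15, edgeR adjusted p = 0.00233). Wnt4 lies at chr4:137277489-137299726.

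Wnt7b, a ligand known for dendrite growth and for vascular development of the brain, measured 50.5, 39.6 and 49.7 CPM in control SC. In CBP-ifKO SC it measured 30.7, 31.8 and 30.0 CPM, and the groups did not overlap. The log2 fold change was -0.60 (standard error 0.09, edgeR adjusted p = 0.00294). Wnt7b (chr15:85535437-85582473) shares 324 exonic bases with AU022754 on the opposite strand. The strand setting of the counting was not stated, and AU022754 itself, at 3.43 ± 0.522 against 3.33 ± 0.509 CPM in SC (SD, n = 3), was not called.

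Wnt7a, the close relative of Wnt7b and a ligand released at synapses, measured 19.0, 14.9 and 17.4 CPM in control SC and 11.9, 12.9 and 12.5 CPM in CBP-ifKO SC. The CBP-ifKOs lay in a narrow range below the lowest control, and the log2 fold change was -0.46 (standard error 0.10, edgeR adjusted p = 0.0229). Wnt2, a ligand known from lung and placental development, measured 4.30, 4.61 and 4.03 CPM in control SC and 2.45, 2.84 and 2.65 CPM in CBP-ifKO SC. These groups did not overlap either, and the log2 fold change was -0.71 (standard error 0.15, edgeR adjusted p = 0.0221). Wnt7a lies at chr6:91363981-91411363 and Wnt2 at chr6:17988940-18030585. The calls of Wnt4 and Wnt7b held without any single mouse. Those of Wnt2 and Wnt7a were lost without control SC replicate 1 or 3 or without any CBP-ifKO SC mouse, with adjusted p-values of 0.0534 to 0.0784 for Wnt2 and 0.0686 to 0.0942 for Wnt7a. With any 1 mouse left out the log2 fold change stayed between -0.76 and -0.65 for Wnt2 and between -0.55 and -0.37 for Wnt7a.

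Wnt9a (chr11:59306928-59333552), a ligand known from joint formation, measured 10.4, 8.49 and 11.4 CPM in control SC and 7.35, 5.81 and 7.83 CPM in CBP-ifKO SC. The groups did not overlap, but the log2 fold change of -0.53 (standard error 0.14) did not pass the threshold, with an edgeR adjusted p of 0.0570. It passed in 4 of 14 alternatives, among them DESeq2 (adjusted p = 0.0186), the fit without a filter on low counts (adjusted p = 0.00641) and that without control SC replicate 2 (adjusted p = 0.0186). Over the alternatives its adjusted p ran from 0.00641 to 0.215. Wnt4, Wnt7b and Wnt9a are in a list of decreased genes that the study drew partly from these SC mice, so their direction here is not independent evidence.

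Wnt10a (chr1:74791516-74804179), a ligand of tooth and skin appendage development, measured 2.74, 2.15 and 2.21 CPM in control SC and 1.31, 1.94 and 1.59 CPM in CBP-ifKO SC. The groups did not overlap, and the log2 fold change of -0.56 (standard error 0.22) had an edgeR adjusted p of 0.165. Wnt5a, Wnt5b and Wnt10b overlapped between genotypes. Wnt5a, a ligand best known for signaling without β-catenin, had 14.1 ± 1.30 CPM in control SC and 14.2 ± 1.32 CPM in CBP-ifKO SC (SD, n = 3), and the 95% interval of its log2 fold change ran from -0.21 to 0.24. Wnt5a (chr14:28504750-28527448) shares 358 exonic bases with Gm2670 on the opposite strand, which held 4 to 16 counts per mouse.

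In EE, Wnt9a and Wnt4 were lower in CBP-ifKOs by a log2 fold change of -0.85 each, and Wnt7b by -0.31. The other 6 ligands tested did not pass. Within the 6 EE mice 9 ligands passed the filter on low counts, 3 of them were called and all 3 were lower, while 4.57% of 17625 genes were called and 3.53% were called lower. The same 3 were the ones whose groups did not overlap with CBP-ifKOs lower, as in 13.9% of all genes. The median log2 fold change of the 9 ligands was -0.32, against 0.01 over all genes.

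Wnt9a measured 14.8, 18.6 and 13.8 CPM in control EE and 10.3, 6.61 and 8.92 CPM in CBP-ifKO EE. The highest CBP-ifKO was below the lowest control, and the log2 fold change was -0.85 (standard error 0.16, edgeR adjusted p = 0.0147). Without CBP-ifKO EE replicate 3 the adjusted p was 0.0621, and without control EE replicate 1, the mouse with the high choroid plexus markers, the log2 fold change was -0.90 and the adjusted p 0.0155.

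Wnt4 measured 17.9, 13.9 and 14.9 CPM in control EE and 12.1, 6.61 and 6.99 CPM in CBP-ifKO EE. The groups did not overlap, although CBP-ifKO replicate 1 came close to the controls, and the log2 fold change was -0.85 (standard error 0.20, edgeR adjusted p = 0.0396). Wnt7b measured 46.0, 38.2 and 43.8 CPM in control EE and 33.3, 33.9 and 35.2 CPM in CBP-ifKO EE, and the log2 fold change was -0.31 (standard error 0.08, edgeR adjusted p = 0.0460). Both were near the threshold. Without control EE replicate 1, Wnt4 had a log2 fold change of -0.74 (edgeR adjusted p = 0.0821) and Wnt7b of -0.26 (edgeR adjusted p = 0.144). The call of Wnt4 was also lost without control EE replicate 3 and without CBP-ifKO EE replicate 2 or 3, up to an adjusted p of 0.158, and that of Wnt7b without control EE replicate 3 and without any CBP-ifKO EE mouse, up to 0.15.

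Wnt4 and Wnt7b were lower in both housings, and 2.35% of the 17250 genes tested in both were called lower in both. Wnt2 had 4.33, 4.67 and 6.43 CPM in control EE and 3.98, 4.59 and 3.76 CPM in CBP-ifKO EE. These groups overlapped, and the log2 fold change was -0.32 (standard error 0.18, edgeR adjusted p = 0.363). Wnt7a also overlapped, at 15.0, 10.9 and 13.7 CPM in control EE and 10.2, 11.4 and 9.86 CPM in CBP-ifKO EE, and the log2 fold change was -0.32 (standard error 0.13, edgeR adjusted p = 0.185). Wnt9a was called in EE and not in SC, and Wnt2 and Wnt7a in SC and not in EE, but the test of the difference between housings, given below, called none of them.

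**Figure D2:**
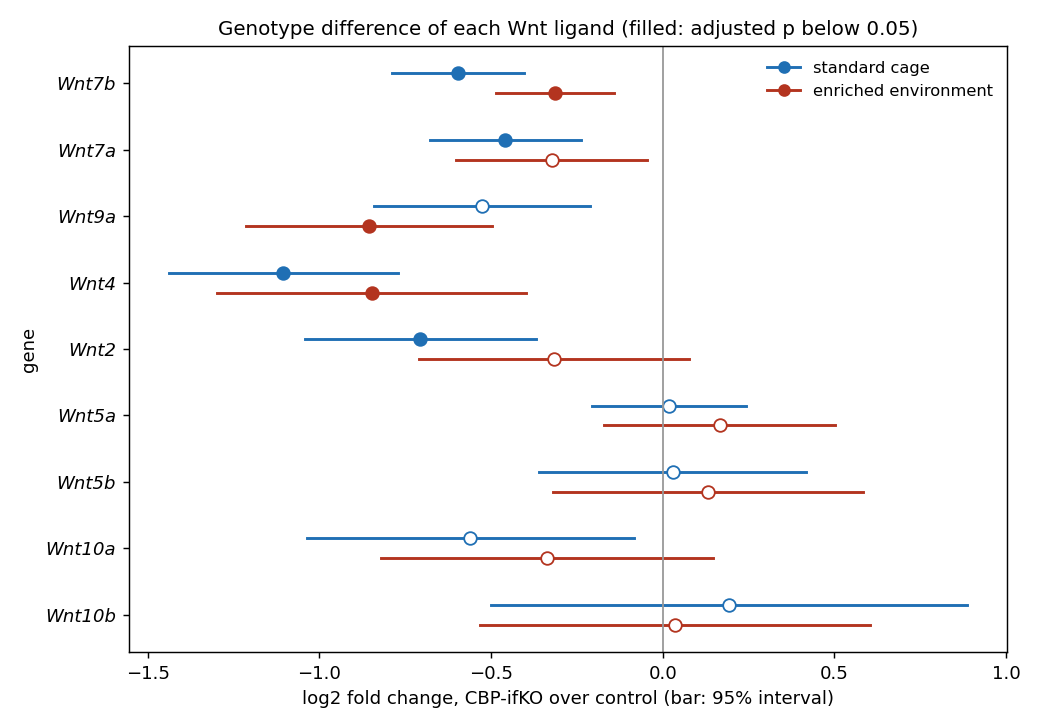
Log2 fold change of CBP-ifKO over control (horizontal axis) for 9 ligands in SC (blue) and EE (red), with bars for the 95% interval and filled points for an adjusted p below 0.05; Wnt6 is left out because its counts were too low in EE. Wnt4 and Wnt7b were called in both housings, and Wnt5a, Wnt5b and Wnt10b lie around 0.

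Marker sums of other cell types also differed between genotypes. Of 8 marker lists, 5 had lower sums in CBP-ifKO SC than in control SC with no overlap: interneurons, astrocytes, microglia, endothelium and choroid plexus, with log2 ratios of the group means from -0.45 for choroid plexus to -0.12 for astrocytes. Excitatory neurons, oligodendrocytes and meninges overlapped. In EE 4 lists were lower with no overlap, namely excitatory neurons, interneurons, astrocytes and microglia, with log2 ratios from -0.17 to -0.11. Of single genes, 13.8% in SC and 13.9% in EE were lower without overlap. Each sum was weighted to the most abundant markers of its list. No marker was at 0 in any mouse. Of the 6 excitatory neuron markers, Wfs1 and Fibcd1, which mark CA1 pyramidal cells, were called lower in both housings, with log2 fold changes of -0.72 and -0.39 in SC (edgeR adjusted p = 0.0049 and 0.00626). Both were called in EE without control EE replicate 1 as well, while 2.35% of the genes tested in both housings were called lower in both. The other 4 were not called in either housing: in SC, Neurod6 (-0.19, adjusted p = 0.0672) and Grik4 (-0.31, adjusted p = 0.0799) did not overlap between genotypes, and Slc17a7 and Prox1 had 0.04 and 0.05. In EE all 6 markers had negative values. In the other lists, Ttr of the choroid plexus (log2 fold change -1.70, edgeR adjusted p = 2.2e-05) and Sst of interneurons (-0.35, adjusted p = 0.0324) were called lower in SC, and of the meningeal markers 2 were called higher in EE. Ttr went from 22.7 ± 2.89 to 6.97 ± 0.871 CPM in SC, while Kl, also a choroid plexus marker, had 23.9 ± 1.84 and 27.8 ± 1.63 CPM (log2 fold change 0.22, not called, groups apart). Vip of interneurons had 0.17 in SC and 0.25 in EE, not called, with the groups apart in both housings. Of the astrocyte markers in EE, Slc1a3 had -0.28 (edgeR adjusted p = 0.0555, and 0.0170 without control EE replicate 1) and Aldh1l1 -0.18. Aqp4 and Gfap had 0.007 and 0.008 there, and Aldh1l1 had 0.14 in SC. With all mice, no astrocyte marker was called in either housing. The part of these marker differences in the lower Wnt levels was not tested.

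Between housings, no Wnt ligand passed the thresholds in either genotype, which were an adjusted p below 0.05 and an absolute log2 fold change above 0.5 in the fit of all 12 mice. In controls, edgeR called none of the 10 ligands and 0% of the 18251 genes, and DESeq2 also called none of the 10. At an unadjusted p below 0.05 there were 3 ligands, Wnt9a, Wnt7a and Wnt6, and 4.21% of all genes. Wnt9a was the only one of the 10 whose control EE mice did not overlap the control SC mice, as in 9.11% of all genes.

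The 3 control EE mice had 13.8 to 18.6 CPM of Wnt9a, and the 3 control SC mice 8.49 to 11.4 CPM. The log2 fold change of EE over SC was 0.64 (standard error 0.17), with an unadjusted p of 0.00158 and an adjusted p of 0.753 from edgeR. Leaving out control EE replicate 1 gave 0.68 and an adjusted p of 0.569. Without a filter on low counts Wnt9a was called in controls, at an edgeR adjusted p of 0.000181. In CBP-ifKOs the groups overlapped, at 6.61 to 10.3 CPM in EE and 5.81 to 7.83 CPM in SC, and the log2 fold change was 0.30 (standard error 0.17, edgeR adjusted p = 0.652). Wnt9a is in the study's list of genes changed by EE, which was chosen on these 12 mice. The study also reports, from ChIP-seq, more histone acetylation at Wnt9a after EE in controls and not in CBP-ifKOs. The ChIP-seq data were not examined here.

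The most abundant relatives of Wnt9a had log2 fold changes of the other sign in controls, and only for Wnt7a did the 95% interval leave out 0. Wnt7a stood at -0.37 on the log2 scale (standard error 0.12, unadjusted p = 0.00595, adjusted p = 0.987 from edgeR) in controls and at -0.25 in CBP-ifKOs. Without control EE replicate 1 it had -0.48 in controls (adjusted p = 0.569). Wnt4 had -0.18 and 0.07, and Wnt7b -0.13 and 0.15, in controls and CBP-ifKOs. In controls their 95% intervals ran from -0.60 to 0.25 and from -0.31 to 0.06. Wnt5a, Wnt5b and Wnt10a had log2 fold changes between -0.16 and 0.12 in the 2 genotypes. Wnt10b had 0.38 and 0.22 at levels of 0.593 to 1.21 CPM, where single mice held few counts.

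In CBP-ifKOs, Wnt2 had the largest housing difference among the 10 ligands described, Wnt6 aside. It measured 2.45, 2.84 and 2.65 CPM in SC and 3.98, 4.59 and 3.76 CPM in EE. The groups did not overlap, and the log2 fold change was 0.64 (standard error 0.16), with an unadjusted p of 0.00138 and an adjusted p of 0.350 from edgeR. It was the only ligand with an unadjusted p below 0.05, as were 8.59% of all genes. Wnt2, Wnt7a and Wnt7b were the 3 of 10 ligands whose groups did not overlap, as in 15.9% of all genes. Neither edgeR nor DESeq2 called any of the 10, and edgeR called 0.011% of all genes.

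**Figure D3:**
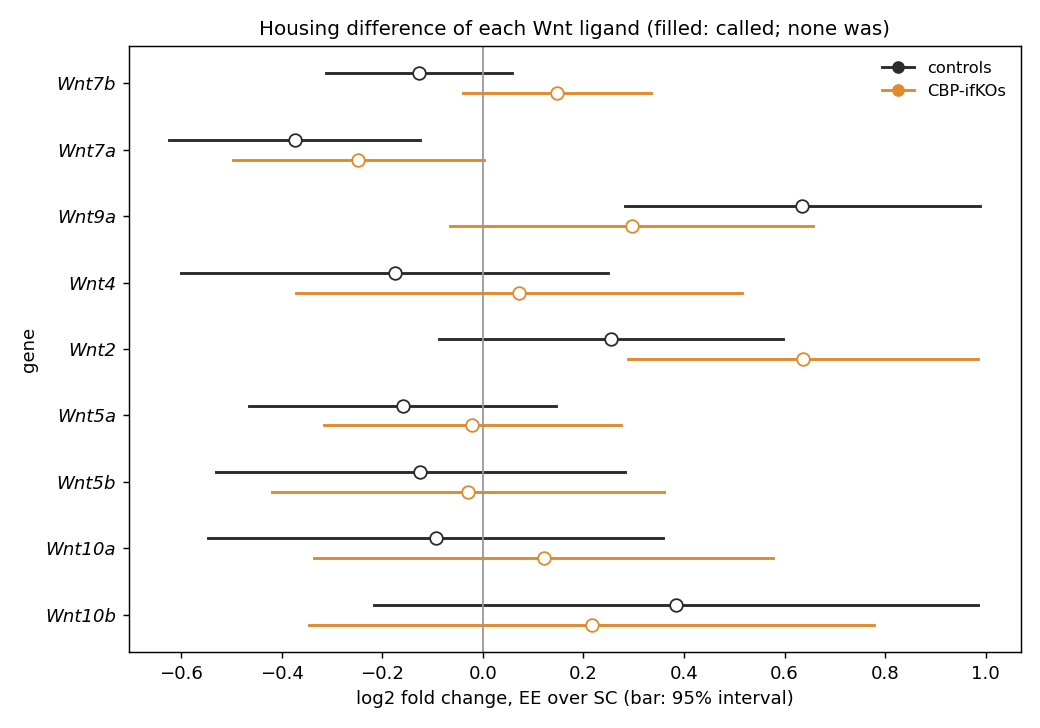
Log2 fold change of EE over SC (horizontal axis) for 9 ligands in controls (black) and CBP-ifKOs (orange), with bars for the 95% interval; open points mark genes that were not called, and Wnt6 is left out. The intervals of Wnt9a and Wnt7a in controls and of Wnt2 in CBP-ifKOs lie to 1 side of 0, and none passed adjustment over all genes.

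The terms for housing and interaction were also tested together with edgeR. edgeR called none of the 10 ligands and 0.0329% of all genes, and 4 ligands (Wnt9a, Wnt2, Wnt7a and Wnt6) had an unadjusted p below 0.05, as had 6.87% of all genes. Wnt9a had an unadjusted p of 0.00275 and an adjusted p of 0.419 in this test, and DESeq2 called it at an adjusted p of 0.0355 (0.0485 without control EE replicate 1). Across the 19 alternatives its adjusted p ran from 3.76e-05, without a filter on low counts, to 0.690.

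The interaction, the genotype difference in EE minus that in SC, was called for none of the ligands by edgeR or DESeq2 and for 0% of all genes by edgeR. At an unadjusted p below 0.05 there were 2 ligands, Wnt6 and Wnt7b, and 3.15% of all genes. For Wnt9a it was -0.34 with a 95% interval from -0.84 to 0.17, for Wnt2 0.38 from -0.11 to 0.87 and for Wnt7a 0.13 from -0.23 to 0.48. Each of these intervals holds 0. Without control EE replicate 1, edgeR called no ligand in the joint test, where Wnt9a had an adjusted p of 0.421, or for the interaction, which was -0.38 for Wnt9a. With all mice, for Wnt7b it was 0.27 from 0.01 to 0.54 (unadjusted p = 0.0420, not called by edgeR).

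Wnt9a was set against the sum of the 10 ligands on the RPKM scale. It made up 10.04% to 11.3% of the sum in control SC, 9.23% to 11.7% in CBP-ifKO SC, 15.2% to 21.6% in control EE and 9.99% to 13.8% in CBP-ifKO EE. The control EE mice were above all other mice, replicate 1 with 15.4%, and the exact two-sided permutation test gave p = 0.1 against control SC and against CBP-ifKO EE, the smallest that 3 against 3 mice allow. The sum itself was 25.4 to 30.2 RPKM in control SC, 25.8 to 28.9 in control EE, 18.9 to 20.1 in CBP-ifKO SC and 19.9 to 22.4 in CBP-ifKO EE. It was lower in CBP-ifKOs in both housings without overlap (exact permutation p = 0.1 for each), and overlapped between housings in each genotype. The ratio of Wnt9a to Wnt4 was 0.690 to 0.766 in control SC and 0.966 to 1.68 over the mice of the other groups.

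Wnt6 (chr1:74771892-74785322) was near the limit of detection. It had 4, 23 and 27 counts in control SC, 0, 2 and 18 in CBP-ifKO SC, 5, 1 and 1 in control EE and 42, 8 and 18 in CBP-ifKO EE. Since CBP-ifKO counts were all even, counts and the floor may not be comparable between genotypes, while a common factor would leave the CPM unchanged. The floor of 3 counts corresponds to 0.0774 to 0.116 CPM per library, so no fold change is given. In EE every CBP-ifKO was above every control, but the gene did not pass the filter there and was not tested. Wnt6 was called higher in CBP-ifKOs when control EE replicate 1 or CBP-ifKO EE replicate 2 was left out, and when no filter was used. With a mouse left out, it passed the filter only through the CBP-ifKO mice, the group where it was high. These calls are therefore no support for a difference. In SC the groups overlapped, with an edgeR adjusted p of 0.268.

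Wnt6 counts were highest in mice with high levels of markers of the meninges, the membranes around the brain. The 4 mice with the highest summed level of 6 meningeal and fibroblast markers, at 141 to 169 CPM, held 18 to 42 Wnt6 counts and were all among the 5 mice with the highest Wnt6 CPM. The other 8 mice, at 73.4 to 107 CPM, held 0 to 18. These 4 mice were control SC replicates 2 and 3, CBP-ifKO SC replicate 3 and CBP-ifKO EE replicate 1. The EE mice did not follow this order: CBP-ifKO EE replicates 2 and 3 had lower sums (73.7 and 88.4 CPM) than all 3 controls (98.2 to 107 CPM) but higher Wnt6 levels (0.213 and 0.528 CPM against 0.0365 to 0.184 CPM), by little for replicate 2. Of the 6 markers, Col1a1 and Aldh1a2 were called higher in CBP-ifKO EE than in control EE, with log2 fold changes of 0.72 and 1.13 (edgeR adjusted p = 0.0393 and 0.0329, and 0.0473 and 0.0513 without control EE replicate 1). Col1a2, Slc6a13 and Lum had 1.13, 0.55 and 0.36 and were not called. For Col1a1, Col1a2 and Aldh1a2 every CBP-ifKO EE mouse was above every control EE mouse. Dcn had -0.31 (edgeR adjusted p = 0.570). It weighed most in the sum, at 74.9 ± 9.20 CPM in control EE and 60.1 ± 31.1 CPM in CBP-ifKO EE. The sums of the groups overlapped. The part of meningeal tissue in the Wnt6 counts was not tested. Wnt10a lies 6193 bases from Wnt6 on the same strand and had 1.31 to 2.74 CPM.

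**Figure D4:**
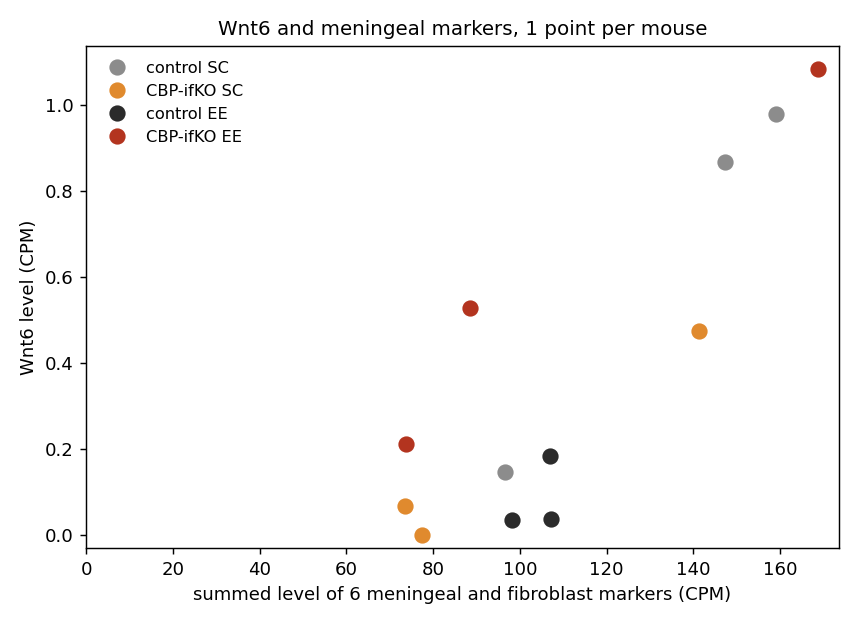
Wnt6 level (CPM, vertical axis) against the summed level of 6 meningeal and fibroblast markers (CPM, horizontal axis), with 1 point per mouse coloured by group. The 4 mice with sums of 141 to 169 CPM have 18 to 42 Wnt6 counts and come from 3 groups.

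The other 9 Wnt ligands were expressed at low levels. Of these, 6 passed the filter and edgeR called none in any comparison, with none at an unadjusted p below 0.05 in SC and 1, Wnt11, in EE. Wnt2b was the most abundant, at 3.63 ± 0.763 CPM in control SC and 4.22 ± 0.594 CPM in CBP-ifKO SC (SD, n = 3). Wnt11 had a mean of 0.829 CPM in control SC and 0.523 in CBP-ifKO SC, and of 0.869 CPM in control EE and 0.454 in CBP-ifKO EE. Wnt3a lies 16175 bases from Wnt9a on the opposite strand and held 0 or 1 count in each mouse, so the 2 neighbours differed widely in level.

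The machinery that releases and receives Wnt signals was described from gene lists by role. Among 16 receptors and co-receptors, all 16 were tested in SC and 1 was called, a share near the 5.52% of all genes. Before adjustment, 8 of 16 had a p below 0.05 in SC and 5 of 15 in EE, beside 20.5% and 19.6% of all genes. Fzd8, a Frizzled receptor, was lower, at 7.28 ± 0.512 CPM in controls and 4.97 ± 0.359 CPM in CBP-ifKOs (SD, n = 3), with a log2 fold change of -0.55 (edgeR adjusted p = 0.0274). In EE it had -0.15 (adjusted p = 0.60) and its groups overlapped. There 15 receptors were tested, and Ror1, a receptor for Wnt5a, was the one called, beside 4.57% of all genes, with 7.77 ± 0.486 CPM in controls, 5.29 ± 0.226 CPM in CBP-ifKOs and a log2 fold change of -0.54 (edgeR adjusted p = 0.0285), but -0.57 and an adjusted p of 0.0549 without control EE replicate 1. In SC Ror1 had -0.37 (adjusted p = 0.0846). The median over the receptors was -0.11 in SC and 0.05 in EE.

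Among the listed secreted inhibitors of the pathway and their relatives, 1 of 9 tested was called in SC and none of 10 in EE, beside 5.52% and 4.57% of all genes. Dkk3, a divergent member of the Dickkopf family, was lower in SC, at 488 ± 24.3 CPM in controls and 403 ± 24.9 CPM in CBP-ifKOs, with a log2 fold change of -0.27 (edgeR adjusted p = 0.0211). In EE its log2 fold change was -0.31 (adjusted p = 0.0794). Of the 8 tested genes of the R-spondin branch, whose ligands raise Wnt signaling by keeping Frizzled receptors at the membrane, 1 was called in SC and none in EE, beside the same shares of all genes. Before adjustment, 2 of 9 inhibitors and 3 of 8 R-spondin genes had a p below 0.05 in SC, and 1 of 10 and 2 of 8 in EE. With so few genes, 1 call says nothing particular about either list. Rspo3 was lower, at 15.4 ± 1.33 CPM in controls and 9.89 ± 1.34 CPM in CBP-ifKOs in SC, with a log2 fold change of -0.64 (edgeR adjusted p = 0.00816), and had -0.59 in EE (adjusted p = 0.107).

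No call was made among the maturation genes Porcn and Wls, the 14 intracellular genes of the pathway or the 4 tested feedback targets, which β-catenin signaling induces. At an unadjusted p below 0.05 there were 1, 3 and 2 of them in SC and 1, 1 and 0 in EE, beside 20.5% of all genes in SC and 19.6% in EE. Axin2, the most used readout of β-catenin signaling, had 24.3 ± 0.938 CPM in control SC, 22.7 ± 1.33 in CBP-ifKO SC, 22.8 ± 1.85 in control EE and 20.6 ± 1.36 in CBP-ifKO EE (SD, n = 3). In both housings its genotype difference was not called. No gene of these pathway lists was called between housings or for the interaction.

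**Figure D5:**
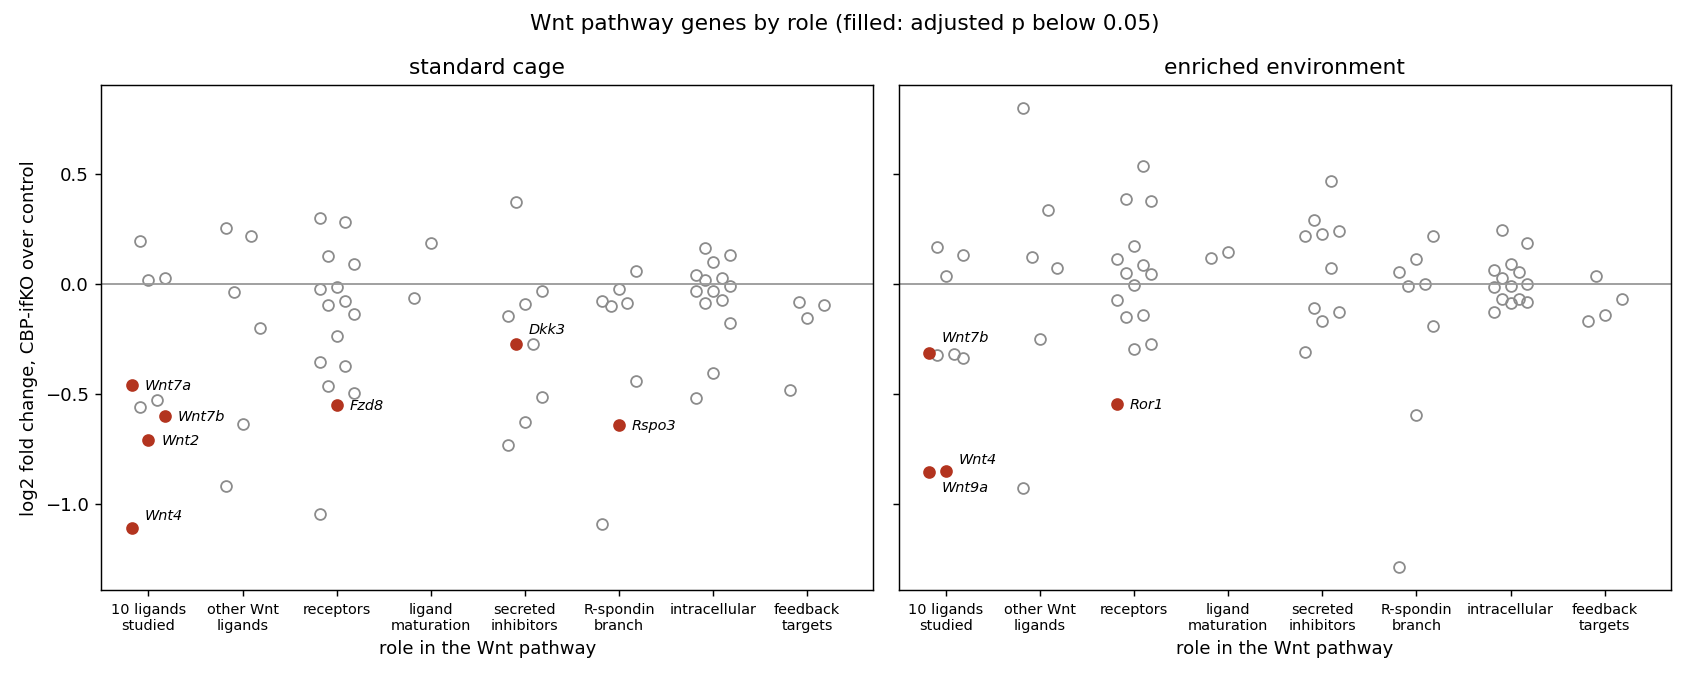
Log2 fold change of CBP-ifKO over control (vertical axis) for the tested genes of the Wnt pathway by role (horizontal axis), in SC (left) and EE (right), with 1 point per gene and filled, named points for an adjusted p below 0.05; Wnt6 is left out. In SC 4 of the 10 ligands and 1 of 16 receptors were called, beside 5.52% of all genes; the difference between the lists was not tested.

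Genes with levels most like those of Wnt9a were ranked by Pearson's r over the 12 mice on the log2 CPM scale, among all genes that passed the filter. The first 5 were Prokr2 (r = 0.919), Usp2 (r = 0.903), Cdc40 (r = 0.902), Gphn (r = 0.899) and Stard8 (r = 0.897). Over deviations from the group means, which leave out genotype and housing, they were Tyw5 (r = 0.972), Eny2 (r = 0.947), 1700028E10Rik (r = 0.942), 1700124L16Rik (r = 0.921) and P4ha3 (r = 0.920). No gene was in both sets of 5. The points share libraries and the same 4 groups, and the highest of so many values are given as a description.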

How the data were processed

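The authors trimmed single-end reads of 50 bases with Trim Galore 0.6.4, aligned them to mm10 with STAR 2.6.1 and counted alignments with a mapping quality above 10 on exons. The deposited matrix holds raw counts per gene from both sequencing runs of a mouse merged, and each mouse was 1 replicate. Symbols and positions came from the GENCODE annotation of GRCm38. The deposited gene lengths, in bases, served only for RPKM. Counts in all 6 CBP-ifKO libraries were even, with a cause not given in the sources used here, and a fit with these counts divided by 2 was an alternative.

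Genes were filtered with filterByExpr, scaled with TMM and tested with the quasi-likelihood test of edgeR 4.0.16 and Benjamini-Hochberg adjustment over all genes. Genotype was tested within the 6 mice of a housing, and housing and interaction in all 12. CPM used TMM library sizes from the 12-mouse fit. Scripts were tested on simulated data. Alternatives included DESeq2 1.42.0, other scaling and filters, the replicate block and leaving out each mouse. Nothing states that mice of a group came from separate litters or days, so p-values measure the spread between these mice. The floor of 3 counts covers counting error only.

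The 10 ligands and the gene lists were chosen with earlier results of these data known. All 10 ligands are named, and pathway genes are named where called, up to 4 per list and comparison. Axin2 and the other Wnt ligands named were picked after their values were seen. The 5 genes with the highest r with Wnt9a are also named.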

Additional observations from a re-analysis of the deposited data

How the results depend on the processing

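The genotype call counts of the ligands depended on single mice. In SC 4 were called, and 2 to 5 with 1 mouse left out. In EE 3 were called, and 0 to 4 with 1 mouse left out, with 0 without CBP-ifKO EE replicate 3 and 1 (Wnt9a) without control EE replicate 3. Without control EE replicate 1 or CBP-ifKO EE replicate 2 there were 2, Wnt9a and Wnt6, the latter higher in CBP-ifKOs. There Wnt6 passed the filter only through the CBP-ifKO mice, where it was high, so its call is no support. Without CBP-ifKO EE replicate 1 there were 2, Wnt9a and Wnt4. With a fold threshold, the call of Wnt7a in SC was lost, which left 3, and that of Wnt7b in EE, which left 2. Wnt7a was called in EE without control EE replicate 2. Without a filter on low counts, 2 ligands (Wnt9a and Wnt6) were called between housings in controls and 2 in the joint test, and 1 (Wnt6) for the interaction. DESeq2 called 1 (Wnt9a) in the joint test. Dividing the CBP-ifKO counts by 2 changed no call of a ligand. Of 45 log2 fold changes followed over the alternatives, 34 kept their sign in every one, and none of the 18 values that changed sign was called in either fit.

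Over all genes, the 968 calls in SC became 1512 without the filter, 283 with a fold threshold and 399 to 1908 with 1 mouse left out. The 805 calls in EE became 1296 with DESeq2, 1677 without the filter, 1293 in the 12-mouse fit, 276 with a fold threshold and 285 to 1016 with 1 mouse left out. Housing calls rose from 0 to 6 with DESeq2, 80 without the filter and 1 in the 6-mouse fit in controls. They rose from 2 to 22, 121 and 12 in CBP-ifKOs, to 10 with the replicate block, and fell to 0 with halved counts. The 6 joint calls became 11 with DESeq2, 114 without the filter and 13 without the fold threshold, and the interaction gave 110 without the filter. With 1 mouse left out these counts were 0 to 3 in controls, 0 to 6 in CBP-ifKOs and 0 to 7 in the joint test. The causes were not tested. The values of Crebbp, of pathway and marker genes and of Wnt9a in DESeq2 without control EE replicate 1 were chosen after seeing the data.

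Replicate numbers carry no stated pairing, and the mean correlation of same-numbered mice was 0.043 in SC and 0.091 in EE between genotypes, and 0.176 in controls and -0.001 in CBP-ifKOs between housings. Mice correlated best with their own number in 2, 3, 2 and 1 of 3 cases. A fit with the number as a replicate block called Wnt9a in SC (adjusted p = 0.0184), for 5 ligands there, and changed no other call of a ligand. The lowest ligand, Wnt6, held 0 to 42 counts per mouse.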
